A study of Mus musculus with 12 samples.

Results

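The genes described here are 10 genes of the heme oxygenase and NRF2 antioxidant response in mouse kidney, namely Nfe2l2, Keap1, Hmox1, Hmox2, Nqo1, Gclc, Gclm, Txnrd1, Srxn1 and Slc7a11. They were taken by symbol from the 57180 genes of the count tables, and 9 of the 10 were among the 17163 genes with enough reads to be tested. Slc7a11 was too low. The kidneys came from 12 male C57BL/6J mice, 60 days old at the start, of which 4 formed the control group and 4 each the groups treated with 10 mg (10CBD) or 20 mg (20CBD) of cannabidiol (CBD) per kg of body weight. CBD is a constituent of the hemp plant. All mice were injected intraperitoneally once a day for 28 days, the control group with the saline and Tween 80 vehicle alone, so both doses were compared with the same 4 control mice. Poly(A) RNA of each kidney gave 1 library.

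NRF2, the product of Nfe2l2, is a transcription factor that KEAP1 holds in the cytoplasm and hands to the proteasome. Oxidants and electrophiles modify KEAP1, NRF2 then enters the nucleus and binds antioxidant response elements together with small Maf proteins, and genes for heme breakdown, quinone reduction, glutathione synthesis and thioredoxin recycling are transcribed. In the kidney, heme oxygenase 1 is best known as an inducible enzyme of injured tubules and of macrophages that take up heme from red blood cells.

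Libraries held between 15417867 and 23532088 counts on genes. Genes of the mitochondrial genome took 3.53% to 5.77% of the counts in 4 libraries (control mouse 2, 10CBD mice 1 and 3, and 20CBD mouse 3) and 12.8% to 23.4% in the other 8, and the dose comparisons of the tested genes are also given without those 4 libraries. The labelled tissue was checked by its markers. The summed level of 7 proximal tubule genes was 11108 to 12478 counts scaled to library size (CPM, TMM-normalized) in the control group. It was 10264 to 11965 CPM in 10CBD and 9368 to 11090 CPM in 20CBD. All 20CBD mice thus lay below all control mice, by a narrow margin. The 7 genes differed in how far their means moved, and the mean of Slc27a2 alone was not lower in 20CBD than in the control group. Mean Lrp2 was 2227 CPM in the control group and 1319 CPM in 20CBD, and mean Slc34a1 was 3553 and 3037 CPM. Mean Cubn was 375 and 238 CPM, mean Slc5a2 217 and 143 CPM, and mean Slc5a12 172 and 144 CPM. Mean Slc27a2, the highest of the 7, was 4636 and 4687 CPM, and mean Slc22a6 was 652 and 637 CPM. The 3 injured tubule genes summed to no more than 4.05 CPM in any library. In a whole kidney sample, fewer cells of a type and less RNA per cell cannot be told apart. The p-values below rest on how far mice of the same group differ, 1 library each.

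A short stretch of letters typical of an antioxidant response element, TGACNNNGC on either strand, was searched in the RefSeq windows from 250 bases before to 50 bases after each annotated start, for the 8 genes of the set with such a window. It was present in a window of 4 of them, and 14% of the 27025 genes with a window hold it. The matches are shown because all 4 genes are textbook targets of NRF2 or NRF2 itself and are measured below, and capitals mark the 9 matched letters within 10 bases on either side, written along the strand that carries the match, with coordinates of GRCm39 for the matched letters. Distances run from the gene's start in the GENCODE annotation to the centre of the match. That start can differ from the RefSeq start that sets the window.
Nfe2l2, chr2:75535239-75535247, minus strand, 258 bases upstream of the gene: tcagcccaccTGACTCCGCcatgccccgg
Srxn1, chr2:151947472-151947480, minus strand, in an exon 40 bases after the gene's start: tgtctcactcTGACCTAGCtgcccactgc
Gclm, chr3:122039072-122039080, minus strand, 50 bases upstream of the gene: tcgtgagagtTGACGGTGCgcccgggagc
Txnrd1, chr10:82694948-82694956, minus strand, in an intron 25167 bases after the gene's first start, within the window of a later start: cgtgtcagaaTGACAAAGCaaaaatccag
The windows of Keap1, Hmox2, Nqo1 and Slc7a11 did not hold these letters. Each window spans 300 bases, and sequence outside the windows was not searched. Hmox1 and Gclc had no window in the table. A match of letters is a description of the sequence and not a measured binding site.

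Hmox1 (ENSMUSG00000005413, chromosome 8, 75820241 to 75827217, plus strand), which encodes the inducible heme oxygenase that opens heme into biliverdin, iron and carbon monoxide, had the largest difference of the 9 tested genes at both doses. TMM-normalized levels were 73.9, 45.5, 62.0 and 50.7 CPM in control mice 1 to 4, 26.4, 33.3, 37.2 and 28.9 CPM in 10CBD mice 1 to 4, and 37.9, 59.7, 39.6 and 40.7 CPM in 20CBD mice 1 to 4. Every 10CBD mouse lay below every control mouse and below every 20CBD mouse. In 20CBD, 3 mice lay below all control mice and mouse 2 lay among them.

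The group means were 58.0 ± 12.6 CPM in the control group, 31.5 ± 4.76 CPM in 10CBD and 44.5 ± 10.2 CPM in 20CBD (SD, n = 4). At 10 mg the log2 fold change of Hmox1 was -0.88 (SE 0.18, 95% confidence interval -1.27 to -0.50), a level 45.8% below control with an interval from 58.5% to 29.1% below. By edgeR's quasi-likelihood test it did not pass the threshold of an adjusted p under 0.1 (unadjusted p = 2.0e-04, Benjamini-Hochberg adjusted p = 0.305), and it stood 11th of 17163 genes by p-value. DESeq2 on the same genes gave -0.88 and an adjusted p of 0.00844, which passed. The exact permutation test of mean log2 CPM, two-sided, gave p = 0.0286, the smallest that 70 arrangements allow (0.0429 adjusted over the 3 comparisons). Every gene whose groups do not overlap gets this p, as 3.19% of all genes did here, so it restates the separation above. The adjustment covers the 3 comparisons of Hmox1 and not the other genes tested.

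At 20 mg the log2 fold change of Hmox1 was -0.38 (SE 0.18, interval -0.77 to -0.00013), which was not past the threshold (edgeR, unadjusted p = 0.0499, adjusted p = 0.590), and the exact permutation p was 0.143. This value leaned on 2 mice. It was -0.56 without 20CBD mouse 2 and -0.24 without control mouse 1. Between the doses, Hmox1 was 0.50 higher on the log2 scale in 20CBD than in 10CBD (SE 0.18, interval 0.11 to 0.89). The edgeR unadjusted p was 0.0145 and the adjusted p 0.758, and the exact permutation p was 0.0286 (0.0429 adjusted over 3 comparisons). That permutation p again follows from groups that do not overlap, as for 3.1% of all genes. Without 20CBD mouse 2 the difference between doses was 0.33, with an interval of -0.037 to 0.69.

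**Figure D1:**
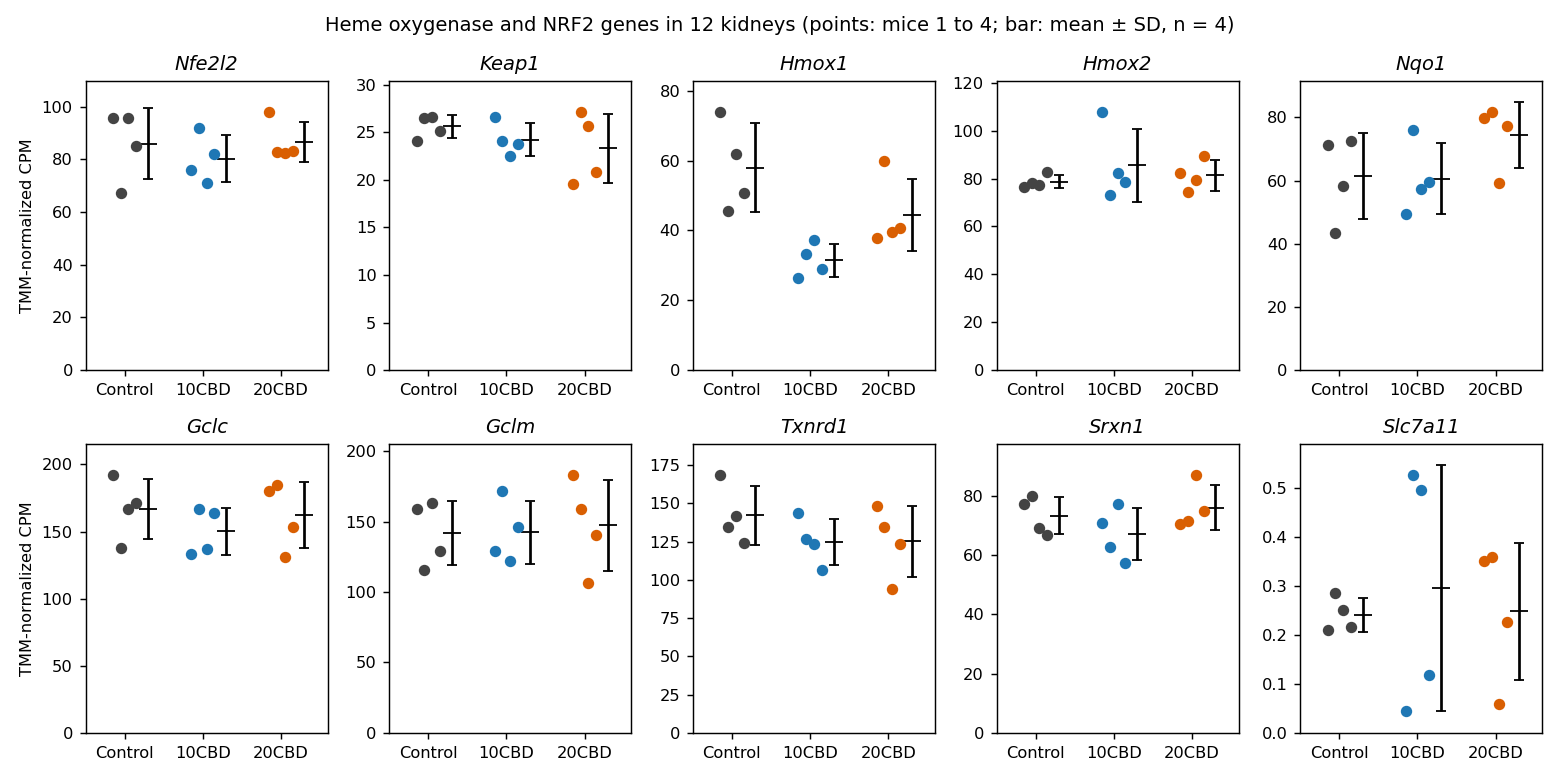
TMM-normalized CPM of each gene in each kidney, with points for mice 1 to 4 from left to right and a bar for the mean ± SD (n = 4) in Control, 10CBD and 20CBD. The Hmox1 levels of 10CBD, 26.4 to 37.2 CPM, lie below those of both other groups, whereas the groups overlap for the other 9 genes.

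Hmox2 (ENSMUSG00000004070, chromosome 16, 4544216 to 4589816, plus strand) encodes the constitutive heme oxygenase. It measured 76.6, 78.1, 77.4 and 82.9 CPM in the control mice, 108, 73.2, 82.5 and 78.5 CPM in 10CBD and 82.3, 74.2, 79.4 and 89.5 CPM in 20CBD. The groups overlapped at both doses, and 10CBD mouse 1 was the highest of all 12. Its log2 fold changes were 0.12 (interval -0.15 to 0.38) at 10 mg and 0.05 (interval -0.22 to 0.31) at 20 mg. Hmox2 overlaps Cdip1 on the opposite strand, which reached 57.7 CPM, and the strand setting of the counting is not given in the sources used here.

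Levels of different genes were compared per length, as TPM (read share per length, scaled to a fixed sum in each library) computed from the counts and the length of the merged exons. On that scale Hmox1 was 2.73 to 4.52 times the level of Hmox2 in the control mice, 1.15 to 2.13 times in 10CBD and 2.13 to 3.77 times in 20CBD. Each 10CBD mouse had a lower ratio than each control mouse, while 20CBD overlapped the control group through mouse 2. The ratio is taken within a library, so it does not depend on how libraries were scaled.

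The order of the genes in the control group, in TPM, was Hmox1 (96.4 ± 17.3), Gclc (78.4 ± 10.3), Nqo1 (65.6 ± 14.7), Txnrd1 (59.2 ± 9.19), Gclm (52.1 ± 4.19), Nfe2l2 (46.0 ± 4.14), Hmox2 (28.3 ± 3.98), Srxn1 (23.2 ± 4.45), Keap1 (13.3 ± 1.84) and Slc7a11 (0.0463 ± 0.011) (SD, n = 4). Neighbours from Hmox1 down to Nfe2l2, and Hmox2 and Srxn1, overlapped between mice. The levels of Nfe2l2 and Hmox2, of Srxn1 and Keap1, and of Keap1 and Slc7a11 did not overlap. Hmox1 was 1st in the control group and 3rd at both doses, at 53.4 ± 11.3 TPM in 10CBD and 64.1 ± 9.41 TPM in 20CBD (SD, n = 4). With the length of the longest transcript in place of the merged exons, Txnrd1 came first in the control group (95.8 TPM) and Hmox1 came next (89.0 TPM), and Hmox1 was 6th in 10CBD and 3rd in 20CBD. With mitochondrial and ribosomal RNA genes removed from the total it was 4th in 10CBD and 3rd in 20CBD. On this scale the totals contain the mitochondrial genes, and all 4 20CBD mice lay below the control mice for Hmox1 (51.9 to 73.2 against 87.4 to 122 TPM). After removal of mitochondrial and ribosomal RNA genes from the total they overlapped again (94.2 to 170 against 127 to 206 TPM).

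The regulator and its inhibitor came next. Nfe2l2 (ENSMUSG00000015839, chromosome 2, 75504739 to 75534985, minus strand) measured 95.6, 67.2, 95.8 and 85.0 CPM in the control mice, 76.0, 91.7, 70.9 and 81.9 CPM in 10CBD and 97.9, 82.7, 82.3 and 83.1 CPM in 20CBD. All 3 groups overlapped. The log2 fold change was -0.10 (interval -0.38 to 0.18) at 10 mg and 0.0097 (interval -0.27 to 0.29) at 20 mg. NRF2 is controlled mainly through the stability of the protein, which RNA counts do not measure.

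Keap1 (ENSMUSG00000003308, chromosome 9, 21141026 to 21150679, minus strand), the sensor that holds NRF2, was at 24.1 to 26.6 CPM in the control group, 22.5 to 26.6 CPM in 10CBD and 19.6 to 27.1 CPM in 20CBD. Its log2 fold changes were -0.08 (interval -0.35 to 0.19) and -0.14 (interval -0.40 to 0.13). The spread of Keap1 was among the narrowest of the set, with the highest of 12 libraries at 1.39 times the lowest, while for Hmox1 that ratio was 2.80 and for the other 7 tested genes 1.46 to 1.88.

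Nqo1 (ENSMUSG00000003849, chromosome 8, 108113835 to 108129934, minus strand) encodes a quinone reductase and is a standard readout of NRF2 activity. Its levels were 71.3, 43.4, 58.3 and 72.7 CPM in the control mice, 49.3, 76.1, 57.3 and 59.5 CPM in 10CBD and 79.7, 81.7, 59.2 and 77.2 CPM in 20CBD. In 20CBD, 3 of 4 mice were above every control mouse and mouse 3 was not. The log2 fold change at 20 mg was 0.28 (SE 0.17, interval -0.09 to 0.65, edgeR adjusted p = 0.732), the highest of the 9 tested genes and not past the threshold, and at 10 mg it was -0.02 (interval -0.39 to 0.35). Without control mouse 2, the lowest of the 12 and a library of low mitochondrial share, the value at 20 mg was 0.14. Hmox1 and Nqo1 thus had log2 fold changes of opposite sign at 20 mg, and neither passed the test.

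Both subunits of glutamate cysteine ligase, which makes the first step of glutathione synthesis, overlapped between groups. Gclc (ENSMUSG00000032350, chromosome 9, 77661797 to 77701770, plus strand), the catalytic subunit, was at 138 to 192 CPM in the control group, 133 to 167 CPM in 10CBD and 131 to 184 CPM in 20CBD, with log2 fold changes of -0.15 (interval -0.46 to 0.15) and -0.04 (interval -0.35 to 0.26). Gclm (ENSMUSG00000028124, chromosome 3, 122039126 to 122065061, plus strand), the modifier subunit, was at 116 to 163, 122 to 172 and 107 to 183 CPM, with log2 fold changes of 0.0045 (interval -0.36 to 0.37) and 0.05 (interval -0.31 to 0.42). The level of Gclm per length was 0.594 to 0.811 of that of Gclc over the 12 libraries.

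The thioredoxin branch was measured by Txnrd1 (ENSMUSG00000020250, chromosome 10, 82669785 to 82733546, plus strand), the cytosolic thioredoxin reductase, and Srxn1 (ENSMUSG00000032802, chromosome 2, 151947436 to 151957687, plus strand), the sulfiredoxin that repairs overoxidized peroxiredoxins. Txnrd1 was at 124 to 169 CPM in the control group, 107 to 143 CPM in 10CBD and 93.8 to 149 CPM in 20CBD. Its log2 fold changes of -0.19 (interval -0.51 to 0.14) and -0.18 (interval -0.51 to 0.14) were within the spread between mice. Their likeness in size rested on single libraries. In the 8 libraries with at least 10% mitochondrial counts they were -0.32 and -0.093, without 20CBD mouse 3 the value at 20 mg was -0.070, and without control mouse 1 the value at 10 mg was -0.090. Srxn1 was at 66.8 to 79.9, 57.5 to 77.3 and 70.6 to 87.1 CPM, with log2 fold changes of -0.13 (interval -0.39 to 0.13) and 0.05 (interval -0.21 to 0.31).

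Slc7a11 (ENSMUSG00000027737, chromosome 3, 49846975 to 50398070, minus strand), the cystine importer that feeds glutathione synthesis, was barely detected. Raw counts were 5, 6, 5 and 4 in the control mice, 1, 8, 11 and 2 in 10CBD and 6, 6, 1 and 4 in 20CBD. At such counts a difference between groups was not detectable at this depth. Fitted without a filter on low counts, its log2 fold changes were 0.24 (interval -1.10 to 1.58) and 0.03 (interval -1.34 to 1.41).

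By edgeR, 0 of the 9 tested genes passed an adjusted p under 0.1 in any of the 3 comparisons. Over all genes tested, 5 passed at 10 mg (0.0291%), 52 at 20 mg (0.303%) and 0 between the doses (0%). At an unadjusted p under 0.05 the set held 1 gene in each comparison, Hmox1 each time, against 5.67%, 8.45% and 6.31% of all genes. DESeq2 called 1 gene of the set at 10 mg (Hmox1, against 0.233% of all genes), 0 at 20 mg (1.06%) and 0 between the doses (0.0699%). Hmox1 was also the gene of the set whose groups did not overlap, in 10CBD against Control (3.19% of all genes) and in 20CBD against 10CBD (3.1%). No tested gene of the set was separated in 20CBD against Control, where 5.3% of all genes were. At 10 mg, 7 of 9 genes had a log2 fold change below 0 (47.7% of all genes) and the median was -0.10 (0.012 over all genes). At 20 mg the split was 5 above and 4 below (52.5% of all genes were above) with a median of 0.0097 (0.015 over all genes). Between the doses, 7 of 9 were above 0 (49.4% of all genes) with a median of 0.11.

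**Figure D2:**
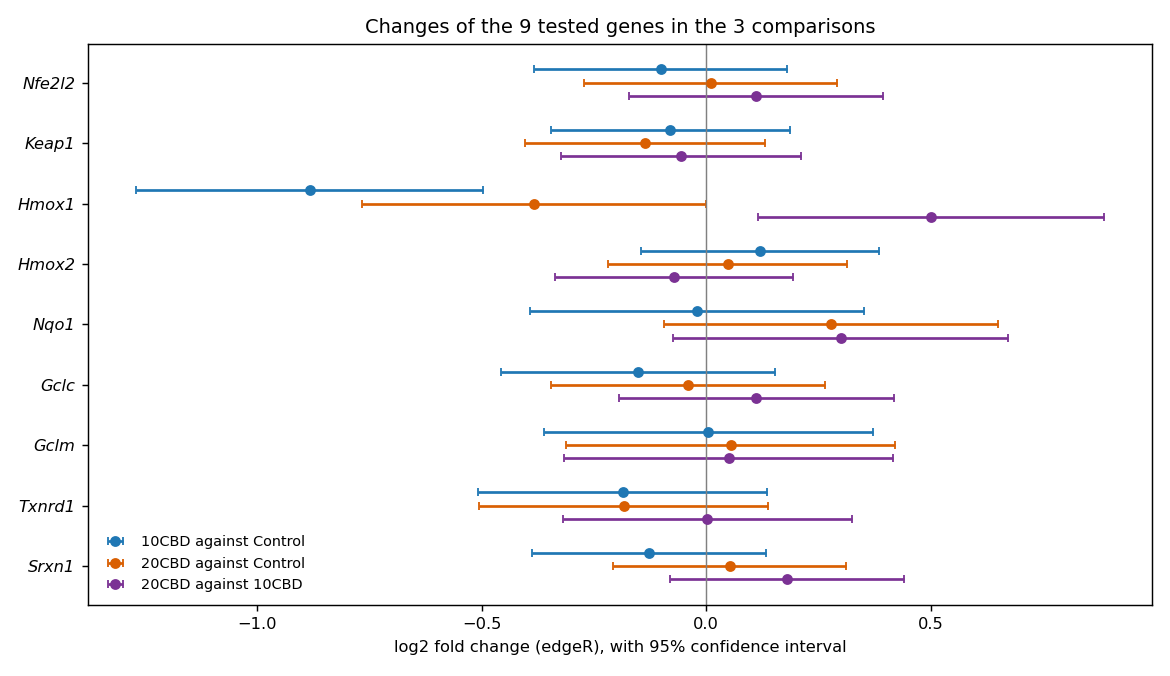
The log2 fold changes (edgeR) of the 9 tested genes with their 95% confidence intervals in 10CBD against Control, 20CBD against Control and 20CBD against 10CBD. The Hmox1 interval of -1.27 to -0.50 at 10 mg lies apart from 0, and the intervals of the other 8 genes cross 0 in all 3 comparisons.

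The Hmox1 difference at 10 mg kept its sign under every alternative fit that was run, with log2 fold changes from -1.0 to -0.82 over 12 alternatives and from -0.99 to -0.74 when 1 library was left out. Whether it passed the threshold depended on the fit. It passed with DESeq2, without a filter on low counts (-0.91, adjusted p = 5.8e-06), with the mitochondrial share as a covariate (-0.82, adjusted p = 0.0845) and in the 8 libraries with at least 10% mitochondrial counts (-1.0, adjusted p = 0.0718). It did not pass in the other 8 alternatives or in any of the 12 edgeR fits without 1 library (adjusted p from 0.190 to 0.925). Without the filter 297 genes were called in place of 5, and Hmox1 stood 65th of 40012 genes by p-value, against 11th of 17163.

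**Figure D3:**
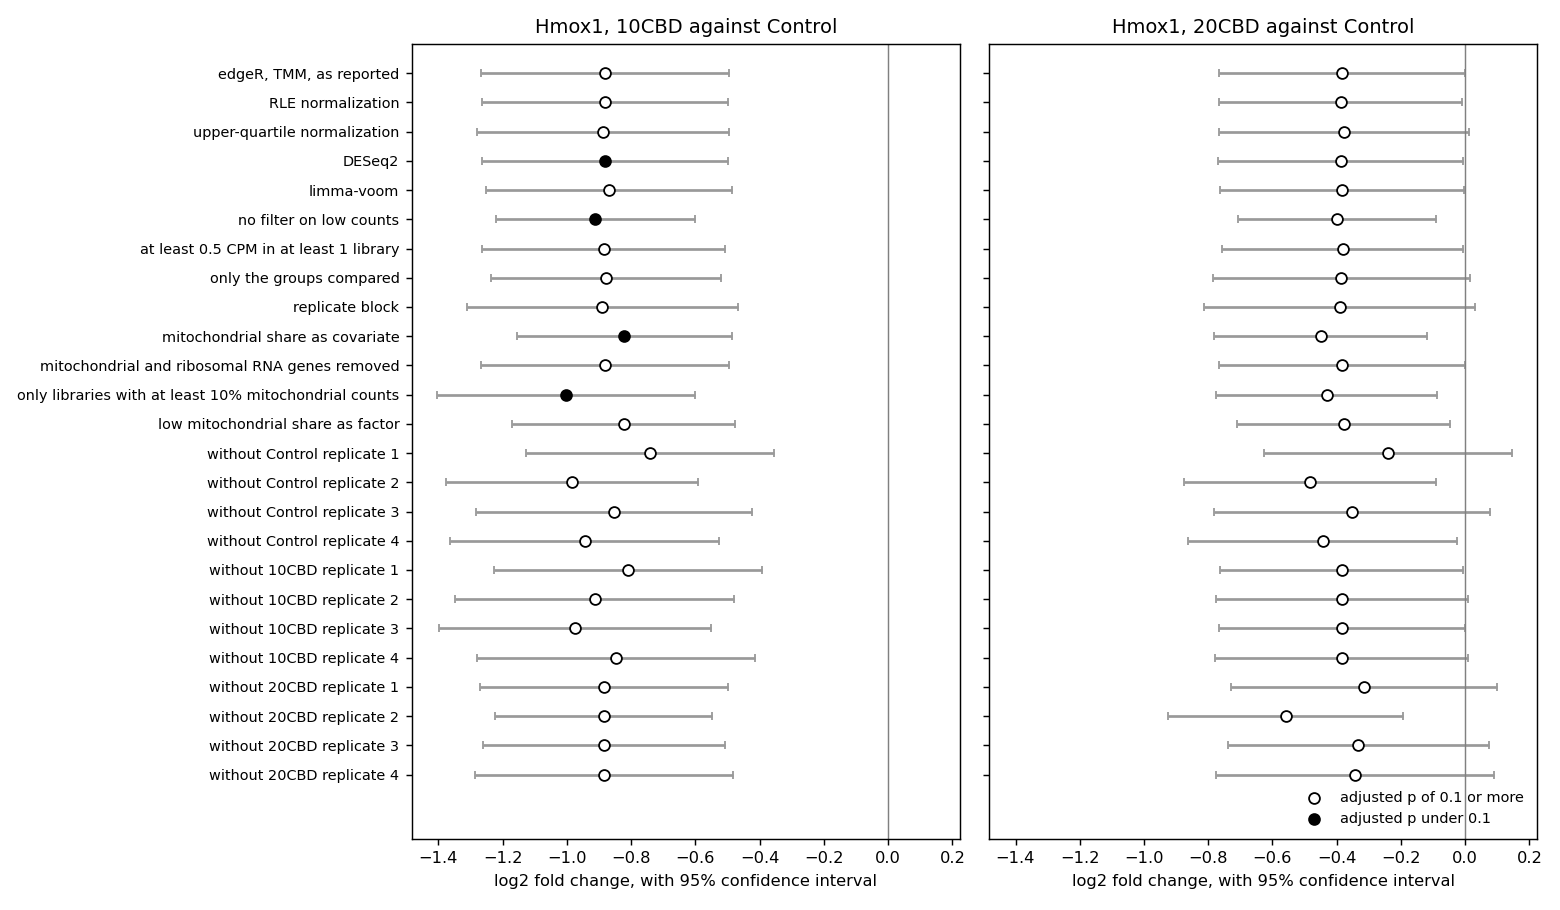
Hmox1 log2 fold changes with 95% confidence intervals at each dose against Control, one line for each way of fitting, including each library left out, with filled points for an adjusted p under 0.1. At 10 mg every point lies between -1.0 and -0.74 and 4 are filled, and at 20 mg the points lie between -0.56 and -0.24 and none is filled.

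The levels of some of these genes moved with the mitochondrial share of a library. With low share as a factor beside the group, 5 of the 9 genes were called by edgeR between the 4 low and the 8 other libraries, 4 of them lower and 1 higher, against 37% of all genes (18.2% lower and 18.8% higher). Nqo1 was lower in the low libraries by a log2 fold change of -0.46 (adjusted p = 0.00267), Gclm by -0.43 (0.00494), Gclc by -0.34 (0.00649) and Nfe2l2 by -0.26 (0.0404), whereas Srxn1 was higher by 0.25 (0.0246). These are edgeR's adjusted p-values over all genes.

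Gclc and Gclm were lower in all 4 low libraries than in any other, at 131 to 138 against 154 to 192 CPM for Gclc and 107 to 129 against 129.2 to 183 CPM for Gclm. Hmox1 showed -0.19 in this contrast (interval -0.49 to 0.12, edgeR adjusted p = 0.352), and Keap1, Hmox2 and Txnrd1 also did not pass. The control group and 20CBD each had 1 low library and 10CBD had 2. Among libraries with at least 10% mitochondrial counts, Hmox1 was at 50.7 to 73.9 CPM in 3 control mice, 28.9 and 33.3 CPM in 2 10CBD mice and 37.9 to 59.7 CPM in 3 20CBD mice. The order of the Hmox1 group means was thus the same as with all 12 libraries.

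The dose comparisons were repeated in these 8 libraries (3 control, 2 10CBD and 3 20CBD mice). At 10 mg the log2 fold changes were -1.0 for Hmox1, -0.32 for Txnrd1, -0.25 for Srxn1, -0.099 for Gclc, -0.090 for Nfe2l2, -0.086 for Keap1, -0.061 for Hmox2, 0.0036 for Nqo1 and 0.077 for Gclm. At 20 mg they were -0.43 for Hmox1, -0.17 for Keap1, -0.093 for Txnrd1, -0.066 for Nfe2l2, -0.032 for Gclc, 0.026 for Srxn1, 0.057 for Hmox2, 0.098 for Gclm and 0.24 for Nqo1. Of these values, that of Hmox1 at 10 mg passed the threshold.

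**Figure D4:**
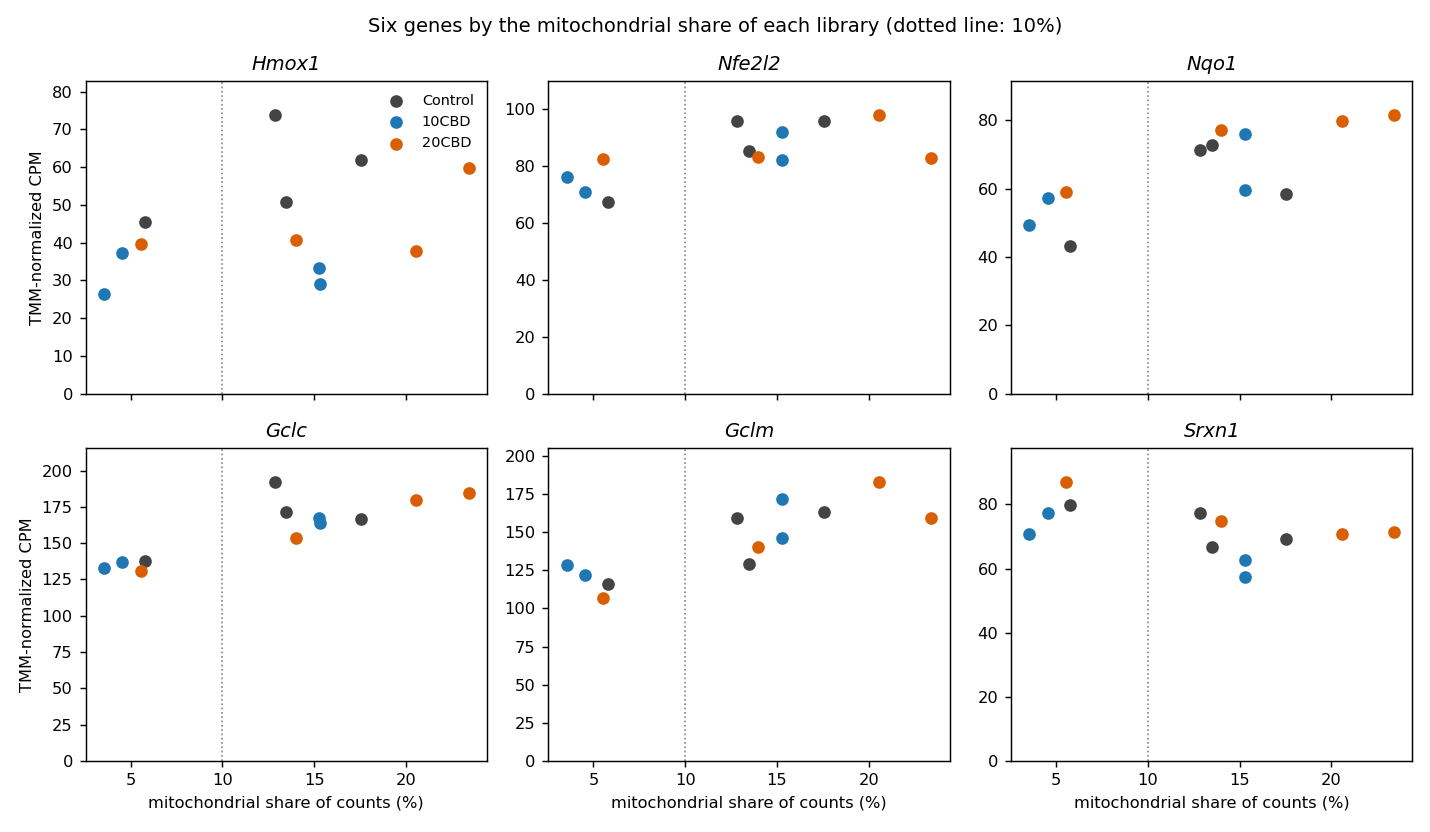
TMM-normalized CPM of Hmox1, Nfe2l2, Nqo1, Gclc, Gclm and Srxn1 against the mitochondrial share of counts (%), 1 point per library coloured by group, with a dotted line at 10%. The 4 libraries left of the line have the lowest Gclc (131 to 138 CPM) and Gclm levels, and 3 of their 4 Hmox1 levels lie within the range of the other 8. All 4 Hmox1 levels (26.4 to 45.5 CPM) lie below the median of the other 8 (45.7 CPM), and 2 of the 4 are from 10CBD.

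Cells that can carry Hmox1 were followed by their markers. The 9 macrophage genes summed to 90.8 to 108 CPM in the control group, 90.9 to 106 CPM in 10CBD and 84.0 to 117 CPM in 20CBD, and none of them was at 0 in all libraries. The 6 red blood cell genes summed to 627 to 1470, 639 to 1169 and 711 to 1694 CPM. Neither sum was separated between groups. The 4 adipocyte genes summed to 3.58 to 41.5 CPM in the control group, 0.858 to 14.7 CPM in 10CBD and 0.420 to 7.17 CPM in 20CBD, and the part of fat or of the lower proximal tubule sum in the Hmox1 values was not tested.

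Genes that act around the set were described by lists. Among 12 genes that control NRF2, which include its ubiquitin ligase, its kinase and its Maf partners, 0 were called at either dose by edgeR or DESeq2. By edgeR, 1 had an unadjusted p under 0.05, at 10 mg, where 5.67% of all genes did. That gene was Nfe2l3, a weakly expressed relative of Nfe2l2, with 0.544 to 0.716 CPM in the control group and 0.994 to 1.29 CPM in 10CBD. Its log2 fold change was 0.85 with an edgeR adjusted p of 0.796. At 10 mg, Btrc, a ubiquitin ligase subunit, had a log2 fold change of 0.21, Rbx1, the RING subunit of the KEAP1 ligase, -0.26 and Cul3, its scaffold, -0.15. At 20 mg, Nfe2l3 had 0.44. The small Maf gene Maff, at 1.41 to 2.58 CPM in the control group and 1.69 to 3.96 CPM in 20CBD, had 0.35. Mafg, also a small Maf gene, had -0.07 and the kinase gene Gsk3b had -0.08. Several of these values turned on a few libraries. In the 8 libraries with at least 10% mitochondrial counts Rbx1 was at -0.15 and Cul3 at 0.045, and without 20CBD mouse 3 Maff was at 0.14. Mafg was at 0.019 and Gsk3b at -0.042 without 20CBD mice 1 and 3, respectively.

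Of the 28 tested genes among 29 other NRF2 targets, 0 were called by edgeR or DESeq2 in any of the 3 comparisons. At 10 mg, 20 of the 28 had a log2 fold change below 0 (47.7% of all genes) with a median of -0.04 (0.012 over all genes). The smallest p-values belonged to Abcc4, an efflux transporter (-0.56), and Gsta2, a glutathione transferase (-0.40), neither past the threshold (edgeR adjusted p = 0.796 and 0.812). Above 0, the smallest p-values belonged to Ugdh (0.19), which makes UDP-glucuronate, and Gsta1 (0.28). Gsta1 was weakly expressed, at 0.856 to 1.57 CPM in the control group and 1.06 to 1.94 CPM in 10CBD. Its value was -0.074 in the 8 libraries with at least 10% mitochondrial counts. In those libraries Abcc4 was at -0.55 and Gsta2 at -0.31. At 20 mg the split was 14 to 14 (52.5% of all genes were above 0) with a median of -0.0026. Mgst1, a microsomal glutathione transferase, ranged from 28.7 to 40.9 CPM in the control group, 25.0 to 35.0 CPM in 10CBD and 36.8 to 60.4 CPM in 20CBD, with log2 fold changes of -0.15 at 10 mg and 0.54 at 20 mg (edgeR adjusted p = 0.364 at 20 mg). At 10 mg its value was -0.043 without control mouse 1, and at 20 mg Mgst1 was called by edgeR without a filter on low counts (adjusted p = 0.0834), with the mitochondrial share as a covariate (0.0636), in the 8 libraries with at least 10% mitochondrial counts (0.59, adjusted p = 0.0778) and with low share as a factor (0.0531). Cbr3, a carbonyl reductase, had 0.73 at 20 mg (edgeR adjusted p = 0.537) at low levels, 1.09 to 1.76 CPM in the control group and 1.64 to 2.94 CPM in 20CBD. Prdx1, a peroxiredoxin, had -0.23 and Ptgr1, a prostaglandin reductase, -0.15 at 20 mg (0.0058 without control mouse 2).

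Between the doses, 5 of these 28 target genes had an unadjusted p under 0.05 and all 5 were higher in 20CBD (3.47% of all genes were higher at that threshold), namely Mgst1 (0.69), Gsta2 (0.57), Abcc4 (0.54), Cbr1 (0.37) and Gstm1 (0.25) on the log2 scale. Cbr1 and Gstm1 were named after their values were seen. None passed after adjustment (edgeR, 0.758 for the first 4 and 0.785 for Gstm1). Genes of the glutathione transferase families have close copies among which reads can be split, so their single values are uncertain. Mgst1 and Abcc4 were lower in the 4 libraries with a low mitochondrial share (edgeR adjusted p = 0.0330 and 0.0466), of which 10CBD holds 2 and 20CBD 1. In the 8 libraries with at least 10% mitochondrial counts, the differences between doses were 0.72 for Mgst1, 0.40 for Gsta2 and 0.54 for Abcc4. There they were 0.32 for Cbr1 and 0.19 for Gstm1. With low share as a factor they were 0.59 for Mgst1 and 0.45 for Abcc4.

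Among 19 genes of heme and iron handling, 1 was called by edgeR at 20 mg (0.303% of all genes) and 0 at 10 mg (0.0291% of all genes). The called gene was Alas1, the rate-limiting enzyme of heme synthesis outside red cells. It measured 72.1, 55.8, 66.5 and 69.5 CPM in the control mice, 109, 75.4, 109 and 91.9 CPM in 10CBD and 120, 101, 97.8 and 117 CPM in 20CBD. The lowest treated mouse was above the highest control mouse. Of all genes, 3.19% did not overlap between 10CBD and Control and 5.3% between 20CBD and Control. Alas1 rose by a log2 fold change of 0.72 at 20 mg (SE 0.14, interval 0.43 to 1.02, edgeR adjusted p = 0.0567), and it was 0.54 at 10 mg (interval 0.25 to 0.84, edgeR adjusted p = 0.679, DESeq2 adjusted p = 0.0996). The 10CBD mice with the highest Alas1, 1 and 3, are the libraries of low mitochondrial share in that group. Over all 12 libraries, the 4 low ones differed from the other 8 by 0.0031 for Alas1, with the group in the model (edgeR adjusted p = 0.988). In the 8 libraries with at least 10% mitochondrial counts Alas1 was at 0.27 at 10 mg (edgeR adjusted p = 0.878) and 0.70 at 20 mg (edgeR adjusted p = 0.0132), and with low share as a factor it was at 0.54 and 0.72. The call at 20 mg was lost when any of 7 libraries was left out (each of the 4 control mice and 20CBD mice 1, 2 and 4), with log2 fold changes of 0.65 to 0.77 and adjusted p-values up to 0.205 over all 12 fits.

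Alas1 was thus above, and Hmox1 below, its control mean at both doses, with different tests passed. Uros, a later enzyme of heme synthesis, had log2 fold changes of -0.39 and -0.37 (edgeR, unadjusted p = 0.00837 and 0.0117) and did not pass after adjustment. The other heme and iron genes with the smallest p-values in their direction were Cpox, another synthesis enzyme (0.27 at 10 mg), Slc40a1, the iron exporter ferroportin (-0.22 at 10 mg), Blvrb, a biliverdin reductase (0.45 at 20 mg), and Tfrc, the transferrin receptor (-0.42 at 20 mg). These 4 values rested on few libraries. Cpox was at 0.13 without 10CBD mouse 1, Slc40a1 at -0.053 and Tfrc at -0.20 without control mice 1 and 2, respectively, and Blvrb was at 0.25 in the 8 libraries with at least 10% mitochondrial counts, where Cpox was at -0.012. The median over the 19 genes was 0.09 at 10 mg and 0.10 at 20 mg.

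Of 20 other antioxidant enzymes, 0 were called at either dose by edgeR or DESeq2. At 10 mg, 16 of the 20 had a log2 fold change below 0 (47.7% of all genes). The median was -0.07 (0.012 over all genes). At 20 mg, 12 were above 0 (52.5% of all genes) and 8 below, with a median of 0.08 (0.015 over all genes). Between the doses, 18 were above 0 (49.4% of all genes) and 2 below, with a median of 0.16. At 10 mg the smallest p-values in each direction belonged to the superoxide dismutase genes Sod1 (0.38) and Sod3 (-0.38), the glutathione peroxidase gene Gpx1 (0.25) and the methionine sulfoxide reductase gene Msra (-0.22). At 20 mg they belonged to Gpx3 (0.42), Gpx1 (0.71), Msra (-0.17) and Prdx3, a mitochondrial peroxiredoxin (-0.09, and -0.045 without control mouse 1). Single libraries carried the Sod1 and Gpx1 values. At 10 mg, Sod1 was at 0.14 and Gpx1 at 0.030 without 10CBD mouse 1, and at -0.0010 and -0.29 in the 8 libraries with at least 10% mitochondrial counts, where Sod3 was at -0.15. At 20 mg, Gpx1 was at 0.20 without 20CBD mouse 3, which had 487 CPM against 122 to 211 CPM in the other 3. In the 8 libraries Gpx1 was at 0.26 and Gpx3 at 0.28 at 20 mg. Gpx3, the secreted glutathione peroxidase that the kidney supplies to plasma, was at 17079 to 23724 CPM in the control group, 16766 to 20499 CPM in 10CBD and 25850 to 31616 CPM in 20CBD. Its 20CBD mice lay above all other mice. Of all genes, 5.3% did not overlap between 20CBD and Control and 3.1% between 20CBD and 10CBD. Between the doses DESeq2 called Gpx3 (log2 fold change 0.58, adjusted p = 0.0301, with 0.0699% of all genes called) while edgeR did not (0.59, adjusted p = 0.758).

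**Figure D5:**
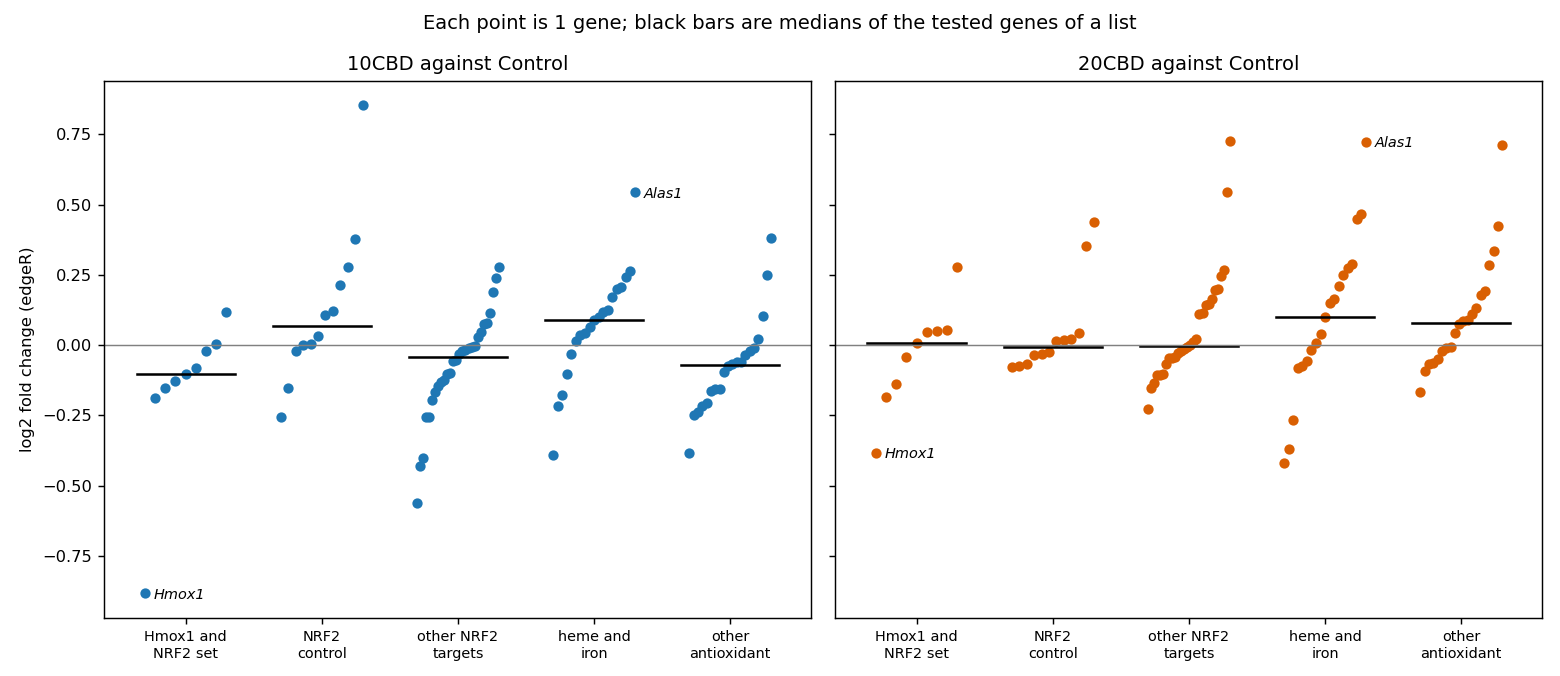
The log2 fold changes (edgeR) of the tested genes of the Hmox1 and NRF2 set and of the 4 lists around it, at each dose against Control, with 1 point per gene and a black bar at each median. Hmox1 is the lowest point of its set at both doses (-0.88 and -0.38), and Alas1 lies at 0.54 and 0.72 in the heme and iron list.

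The other genes of the set were compared with Hmox1 from mouse to mouse. Pearson's r with Hmox1 in log2 CPM over the 12 libraries, given as a description of libraries that share preparation and groups, was 0.56 for Gclc, 0.45 for Txnrd1, 0.36 for Nfe2l2, 0.32 for Srxn1, 0.29 for Nqo1, 0.24 for Keap1, 0.21 for Gclm and -0.51 for Hmox2. With the mean of each group removed, r was 0.54 for Gclc, 0.51 for Nqo1, 0.39 for Gclm, 0.33 for Txnrd1, 0.29 for Nfe2l2, 0.14 for Keap1, 0.011 for Srxn1 and -0.50 for Hmox2. Over all genes tested, the most like were Pitpnm2 (0.91), Slc16a6 (0.87), Kcne1 (0.86), Mreg (0.85) and Ubac2 (0.85), and the most opposite were Srek1 (-0.91), Ccdc191 (-0.90) and Lipo2 (-0.89). When the mean of each group was removed, 0 of these 8 genes remained among the 5 most like and 3 most opposite, while r was 0.85 for Slc16a6, 0.84 for Pitpnm2, 0.72 for Ubac2, 0.70 for Kcne1, 0.55 for Mreg, -0.85 for Ccdc191, -0.82 for Srek1 and -0.69 for Lipo2.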

How the data were processed

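Poly(A) RNA of 12 mouse kidneys was sequenced as paired reads from CORALL mRNA-Seq V2 libraries. Per the methods and the submitters' processing notes, the authors trimmed with Flexbar, aligned to the GRCm39 genome by STAR 2.7.5c and counted by HTSeq 1.99.2. The deposited values are raw counts per Ensembl gene, one library per file. The annotation release, the strand setting and the use of molecular identifiers are not given in the sources used here. Reads with no feature or ambiguous, 17.2% to 24.6% of those counted or set aside so per library, were left out. Symbols, positions and exon lengths came from GENCODE vM39, which held 99.02% of the identifiers, and promoter windows from RefSeq, placed on GRCm39 by sequence.

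Counts were normalized by TMM, filtered by filterByExpr and fitted with edgeR 4.0.16 (R 4.3.3), by its quasi-likelihood test over all 12 libraries with a mean per group. P-values were adjusted by Benjamini-Hochberg over 17163 genes and called under 0.1. Log2 CPM used a prior count of 2. Alternatives were DESeq2 1.42.0, limma-voom (limma 3.58.1), other normalizations, filters, models and library subsets, and leaving out each library. Totals were 15417867 to 23532088 counts, and the fits were tested on simulated data. Besides the members, the genes named are those of each list called by edgeR or DESeq2, the 2 with the smallest p per dose and direction, and the 5 most like and 3 most opposite to Hmox1. The members and lists were chosen with earlier results of these data known.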

Additional observations from a re-analysis of the deposited data

Results flagged for a closer look

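In each group of 4 mice, the highest or lowest level of each of the 10 genes was set against the other 3. Of 30 groups examined, 2 held a mouse far from the others, and chance gives about 1 in 20 groups. Hmox1 was at 59.7 CPM in 20CBD mouse 2, while the other 20CBD mice lay between 37.9 and 40.7 CPM. Nfe2l2 was at 97.9 CPM in 20CBD mouse 1, while the other 20CBD mice lay between 82.3 and 83.1 CPM.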

How the results depend on the processing

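The sign of the Hmox1 difference was the same in all 3 comparisons under each of the 12 alternatives and in each fit without 1 library. At 10 mg Hmox1, and with it 1 gene of the set in place of 0, was called with DESeq2 (-0.88), without a filter (-0.91), with the mitochondrial share as a covariate (-0.82) and with only libraries of at least 10% mitochondrial counts (-1.0). Over all genes, these fits called 40, 297, 15 and 26 genes, respectively, in place of 5. The number of called genes of the 4 lists at 10 mg was 1 in place of 0 with DESeq2 and without a filter. At 20 mg it was 1 as reported, 0 at an adjusted p under 0.05, 3 without a filter and 7 with the mitochondrial share as a covariate. It was 2 with only libraries of at least 10% mitochondrial counts and 2 with low mitochondrial share as a factor (Alas1 and Mgst1 both times), and 0 to 1 when 1 library was left out. Over all genes at 20 mg, 52 of 17163 were called as reported, 390 of 40012 without a filter and 1386 of 17163 with the covariate. In libraries of at least 10% they were 107 of 17512, and with the factor 293 of 17163. Between the doses the number of called genes of the lists was 1 with DESeq2, 3 without a filter and 1 with the mitochondrial covariate, in place of 0. Over all genes those fits called 12, 224 and 62, in place of 0. The factor for low mitochondrial share was chosen after seeing the data. The cause of these changes was not tested. Nqo1 at 20 mg ranged from 0.14 to 0.37 without 1 library and from 0.17 to 0.30 over the alternatives.

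Genes near 0 changed sign without passing any test. At 10 mg these were Gclm (-0.022 without a filter, -0.0023 with the replicate block), Nqo1 (0.064 with the mitochondrial covariate, 0.0036 in libraries of at least 10%, 0.11 with the low-share factor) and Hmox2 (-0.061 in libraries of at least 10%). At 20 mg they were Nfe2l2 (-0.0042 without a filter, -0.045 with the covariate, -0.066 in libraries of at least 10%) and Gclm (-0.085 with the covariate). Between the doses they were Txnrd1 (-0.0040 with RLE and -0.0040 with DESeq2, -0.0097 with limma-voom, -0.0033 with the replicate block, -0.080 with the covariate, -0.035 with the factor), Hmox2 (0.011 with the covariate, 0.12 in libraries of at least 10%), Gclc (-0.066 with the covariate) and Gclm (-0.19 with the covariate, -0.067 with the factor). Leaving out 1 library changed signs within these ranges: at 10 mg, Hmox2 -0.014 to 0.18, Nqo1 -0.16 to 0.067 and Gclm -0.10 to 0.076. At 20 mg, Nfe2l2 ranged from -0.092 to 0.069, Hmox2 from -0.0035 to 0.087, Gclc from -0.12 to 0.047, Gclm from -0.070 to 0.18 and Srxn1 from -0.022 to 0.095. Between the doses, Keap1 ranged from -0.14 to 0.019, Hmox2 from -0.14 to 0.060, Gclm from -0.072 to 0.18 and Txnrd1 from -0.090 to 0.12.

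Control levels in TPM moved with mitochondrial and ribosomal RNA genes removed from the total, to 78.4 for Nfe2l2, 22.4 for Keap1, 164 for Hmox1, 47.7 for Hmox2, 112 for Nqo1, 133 for Gclc, 88.7 for Gclm, 99.8 for Txnrd1, 38.8 for Srxn1 and 0.0774 for Slc7a11, since the total is smaller. With the longest transcript they were 57.9 for Nfe2l2, 95.8 for Txnrd1 and 0.0642 for Slc7a11. With group means removed, 0 of the 8 genes most like or opposite to Hmox1 stayed among those 8.

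Replicate numbers are shared between groups, but the mice with the same number did not deviate together (r from -0.33 to 0.32 over 12 pairs). With the replicate block Hmox1 had -0.89 at 10 mg, -0.39 at 20 mg and 0.50 between the doses, and the number of called genes over all 17163 fell from 52 to 27 at 20 mg and from 5 to 4 at 10 mg. With no filter on low counts 297, 390 and 224 genes were called in the 3 comparisons, with DESeq2 40, 182 and 12, and with the mitochondrial covariate 15, 1386 and 62. Slc7a11, with at most 11 counts, is beyond the depth of these libraries.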
